A study of Mus musculus with 30 samples.

Results

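A set of 10 genes of cellular iron handling was followed in cultured adipose-derived stem cells of mice. They were picked by symbol, with earlier results of these data known, and all were found among the 38561 mouse genes of the count table. They encode the proteins that bring iron into the cell (Tfrc, Slc11a2 and Steap3), store it (Fth1 and Ftl1), let it out (Slc40a1 and Heph), free it from haem (Hmox1) or sense it (Ireb2 and Aco1). All 10 had enough counts to enter the test, which was run over 14438 genes.

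The cells came from the inguinal fat of male C57BL6/J mice and are progenitors that can form fat, bone and cartilage cells. They were sorted for Sca-1 and CD34 and against CD31, CD45 and Ter119, then grown to passage 2, so the transcripts are those of cultured cells and not of fat tissue. Obese mice were fed, after weaning, a lard diet with 60% of its energy as fat, lean mice ate a control chow, and cells were taken at 52 weeks (aged) or 20 weeks (young). The 30 libraries, 1 per mouse by their titles, fall into 6 aged obese, 8 aged lean, 8 young obese and 8 young lean libraries. The mice were bought from a diet-induced-obesity colony, and of 12 aged obese mice bought 8 were alive at the end. Counts in genes ran from 30597765 to 47970233 per library, and the members drew from 994 counts in all libraries together (Slc40a1) to 1845629 (Ftl1). Aged obese mice had been on the diet for longer than young obese mice, so in obese mice age and time on the diet cannot be told apart.

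Iron bound to transferrin enters a cell through the transferrin receptor, is reduced in the endosome by Steap3 and is passed to the cytosol by the transporter that Slc11a2 encodes. What is not used is stored in ferritin shells built of heavy (Fth1) and light (Ftl1) chains, or leaves through ferroportin, the product of Slc40a1 and the only known iron exporter of mammals, with hephaestin (Heph) oxidising it on the way out. A pair of iron regulatory proteins, made from Aco1 and Ireb2, binds short RNA hairpins when iron is scarce. A hairpin before the coding region then blocks translation of ferritin and ferroportin, which transcript counts do not show. Hairpins after the coding region protect the mRNA of the transferrin receptor from decay, which transcript counts can show.

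The hairpins that set these classes apart were searched for in the GENCODE M21 transcripts of the mouse genome (GRCm38) in the sense of the transcript. The letters sought were a C, then 5 bases, the loop CAGTGN and 5 bases able to pair with the first 5, G with T included. The hairpin-shaped stretches found in the members are shown 5′ to 3′ in DNA letters, with the loop in capitals, because they are the features by which the pathway reads iron.
Fth1, 5′ UTR, chr19:9982732-9982760, plus strand: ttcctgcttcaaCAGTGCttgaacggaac
Ftl1, 5′ UTR, chr7:45459779-45459807, minus strand: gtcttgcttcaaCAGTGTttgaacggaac
Slc40a1, 5′ UTR, chr1:45925465-45925493, minus strand: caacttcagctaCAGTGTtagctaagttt
Tfrc, 3′ UTR, chr16:32631219-32631247, plus strand: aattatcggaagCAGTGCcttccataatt
Tfrc, 3′ UTR, chr16:32631598-32631626, plus strand: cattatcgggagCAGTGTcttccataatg
Tfrc, 3′ UTR, chr16:32631663-32631691, plus strand: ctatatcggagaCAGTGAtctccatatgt
Tfrc, 3′ UTR, chr16:32631710-32631738, plus strand: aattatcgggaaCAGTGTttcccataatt

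Tfrc thus held 4 such stretches in its 3′ UTR and Fth1, Ftl1 and Slc40a1 held 1 each in the 5′ UTR. The same letters and pairing were present in the 5′ UTR of 31 of 20548 genes (0.151%) and in the 3′ UTR of 141 of 20537 genes (0.687%). A match describes the letters only. The search found no match in the UTRs of the other members. It required every base of the stem to pair, so it cannot tell whether they hold hairpins with an irregular stem. Control by iron regulatory proteins is therefore not excluded for these members, Slc11a2 included.

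Levels differed by orders of magnitude between the members. Per length, as TPM (counts divided by exon length and scaled to the library), the median over the 30 libraries was 3629 for Ftl1, 912.6 for Fth1 and 358.4 for Hmox1, so that storage and haem breakdown genes stood above at least 98.0% of the tested genes in mean TPM. Aco1 followed with 49.5 TPM. Next came Tfrc with 22.4, Ireb2 with 18.5, Slc11a2 with 14.4 and Steap3 with 13.5 TPM, whose ranges over libraries overlap. Hephaestin and ferroportin were at the bottom, with 1.55 TPM for Heph and 0.173 TPM for Slc40a1. Only 4.53% of tested genes had a lower mean TPM than Slc40a1. Library ranges did not overlap between Ftl1 (lowest 2570 TPM) and Fth1 (highest 1502 TPM), nor between Hmox1 (lowest 192.6 TPM) and Aco1 (highest 62.7 TPM), and overlapped between all other neighbours in this order. With the length of the longest transcript in place of all exons Ireb2 (23.5 TPM) passed Tfrc (21.7 TPM).

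The spread over libraries was unequal too. The CPM (counts scaled to the library total after TMM scaling) of the highest library was 41.96 times that of the lowest for Slc40a1, 15.2 times for Hmox1, 9.14 times for Steap3, 8.86 times for Tfrc and 7.24 times for Heph, but 1.52 times for Aco1, 1.72 times for Slc11a2, 1.99 times for Ireb2, 2.12 times for Ftl1 and 2.96 times for Fth1. Ferritin reads may also have been lost to near-identical pseudogenes in counting. The listed copies drew few counts, at most 1311 over all libraries (Ftl1-ps1), against 1845629 for Ftl1. Counts given to the copies do not show how many ferritin reads were lost.

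**Figure D1:**
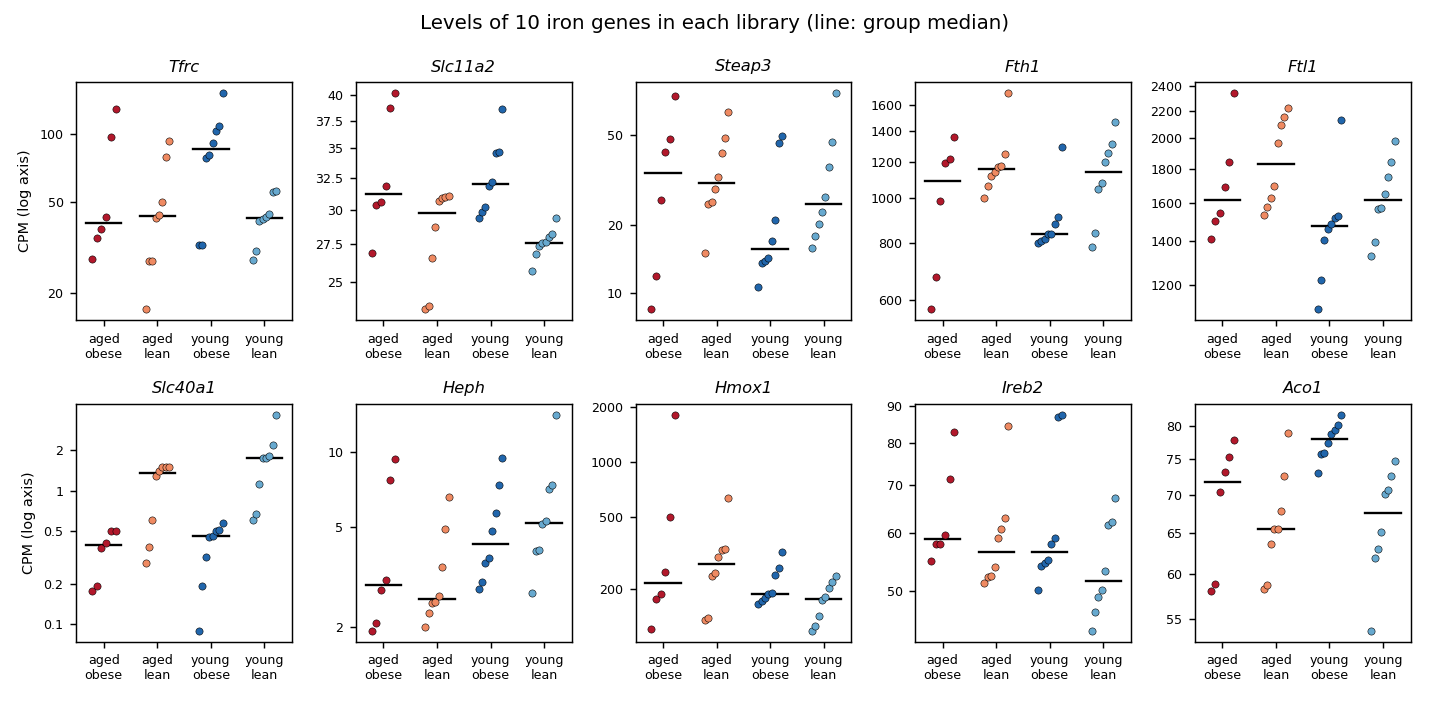
Each point is 1 library, in CPM on a log axis with its own range per gene, and the line is the group median, for 6 aged obese, 8 aged lean, 8 young obese and 8 young lean mice. Slc40a1 in every obese library lies below every young lean library, while Tfrc and Ireb2 split within the young obese group.

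With obesity the iron exporter had the largest fold change of the 10 genes, and it was lower in obese mice of both ages. With obesity in young mice Slc40a1 had 0.088, 0.455 and 0.568 CPM in its lowest, median and highest young obese library, against 0.5997, 1.76 and 3.70 CPM in young lean libraries. The groups did not overlap. The mean was 0.384 ± 0.169 CPM in young obese and 1.70 ± 0.993 CPM in young lean libraries (SD, n = 8 each). Slc40a1 fell, with a log2 fold change of -2.14 ± 0.40 (SE; adjusted p = 0.00901), which is 4.41-fold lower. In bulk RNA, fewer cells that make a transcript and less of it per cell cannot be told apart. Of all tested genes 8.83% were called in this comparison, 5.37% as lower, and 1.61% had groups that did not overlap.

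The fall of Slc40a1 rested on few reads. Counts ran from 3 to 22 per library in young obese mice, against 22 to 144 in young lean mice. It was called in each of the 39 other ways of fitting, the highest adjusted p being 0.0314, without young obese 1 and 2. Those 2 libraries stand apart from the other young obese libraries in Cd34 and proliferation genes, as described with Tfrc, and had 0.450 and 0.493 CPM of Slc40a1, inside the range of the other 6.

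In aged mice the exporter was lower with obesity too, without passing the threshold. Slc40a1 had 0.177, 0.387 and 0.4997 CPM in its lowest, median and highest aged obese library, against 0.287, 1.35 and 1.515 CPM in aged lean libraries. The groups overlapped, because aged lean 13 and 17 stood at 0.287 and 0.375 CPM, while 6 of 6 aged obese libraries were below the aged lean median. Its log2 fold change was -1.57 ± 0.44 and missed the threshold (adjusted p = 0.112). DESeq2 called it (adjusted p = 0.0302), as did the fit without aged lean 16 (adjusted p = 0.0404). The obesity effects at the 2 ages differed by a log2 of 0.57 ± 0.58 (95% interval -0.57 to 1.71, adjusted p = 0.801).

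Age itself was not a called difference for Slc40a1. In lean mice the log2 fold change was -0.68 ± 0.37 (adjusted p = 0.850), with 8 of 8 aged lean libraries below the young lean median. In obese mice it was -0.11 ± 0.45 (adjusted p = 0.923), and its sign turned without aged obese 10 (0.029), aged obese 12 (0.029) or young obese 22 (0.0012). Aged obese set against young lean libraries, which is obesity and age together and shares its groups with the comparisons above, gave -2.25 ± 0.44 (adjusted p = 0.00526). Those groups did not overlap either, with at most 0.4997 CPM in aged obese and at least 0.5997 CPM in young lean libraries. In this comparison 10.3% of tested genes were called, 4.65% as lower, and 1.04% had groups that did not overlap. The call ended with quality weights per library in limma and with the mouse numbers as a block (adjusted p up to 0.133).

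Macrophages, endothelial cells and red cell precursors all handle iron, so their markers were read beside the exporter. The summed level of 10 macrophage and leukocyte markers was 16.01 to 30.04 CPM in aged obese, 12.1 to 36.8 in aged lean, 19.7 to 31.6 in young obese and 15.2 to 35.3 CPM in young lean libraries, and 7 of the 10 were below 1 CPM in every library. Ptprc, which encodes CD45, had 4 counts and Adgre1, which encodes F4/80, 2 counts over all libraries. The 7 red cell markers found in the table summed to at most 0.336 CPM in any library. Endothelial markers summed to 1.28 to 20.9 CPM in aged obese, 4.25 to 17.1 in aged lean, 3.198 to 7.53 in young obese and 6.02 to 15.01 CPM in young lean libraries. Stem cell markers, 8 genes led by Col1a1, summed to 14270 CPM or more in every library, of which Col1a1 alone gave 12150 CPM or more. The sum thus mostly reports Col1a1. Of the other markers, Ly6a stood at 176 CPM or more, but Cd34 and Dcn went down to 0.193 and 0.706 CPM. Among them Lum, a matrix proteoglycan of stromal cells, fell with obesity in young mice (log2 -2.69 ± 0.76, adjusted p = 0.0313). It had 367 counts over all libraries, and its call ended in 7 of 30 fits that left out 1 library and in 3 of 7 other fits. Adipocyte markers, 5 genes led by Fabp4, summed to 40.9 to 69.3 CPM in aged obese, 20.7 to 138 in aged lean, 24.4 to 69.6 in young obese and 26.1 to 103 CPM in young lean libraries, where the highest sum was in the library also highest for Slc40a1. Mural markers, 5 genes led by Acta2, summed to 3106 to 7206 CPM in aged obese, 3118 to 4899 in aged lean, 4163 to 5609 in young obese and 2621 to 5457 CPM in young lean libraries, where the lowest sum was in that same library. The part of these markers in the level of Slc40a1 was not tested.

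The genes whose levels ran most like Slc40a1 over the 30 libraries were Zfand1 (Spearman rho 0.85), Hyi (0.83) and N4bp2l1 (0.82). This is a description over libraries that share groups and culture.

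Hephaestin, which works with ferroportin, was called in none of the comparisons. Heph had 1.93, 2.96 and 9.38 CPM in its lowest, median and highest aged obese library and 2.01, 2.59 and 6.58 CPM in aged lean libraries. In young mice the values were 2.84, 4.30 and 9.41 CPM in young obese and 2.75, 5.23 and 14.01 CPM in young lean libraries. All pairs of groups overlapped. Its log2 fold change was -0.30 ± 0.35 with obesity in young mice (95% interval -0.99 to 0.39, adjusted p = 0.611). That value ran from -0.49 to -0.0020 over fits that left out 1 library and was -0.65 without young obese 1 and 2. It was -0.89 ± 0.36 with age in lean mice (adjusted p = 0.850).

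Ceruloplasmin, the other oxidase of iron export, hepcidin and haem transporters formed a list of 10 genes, of which 7 had enough counts to be tested. With obesity in young mice and in aged mice, and with age in lean and in obese mice, 0 of the 7 were called by edgeR. At an unadjusted p below 0.05 these comparisons had 2, 1, 1 and 1 of the 7, against 4090, 1838, 773 and 2733 tested genes. DESeq2 called 0, 1, 0 and 0 of the 7, against 1810, 187, 8 and 855 of all 14438 tested genes. Quality weights called 4, 0, 0 and 2 of the 7, against 4265, 114, 6 and 2870 of all tested genes. In aged obese against young lean cells 1 of the 7 rose, against 5.62% of all tested genes called as higher. This was Flvcr1, a haem exporter of the plasma membrane, which averaged 9.08 ± 2.45 CPM in 6 aged obese and 5.92 ± 1.56 CPM in 8 young lean libraries (log2 0.62 ± 0.16, adjusted p = 0.0187). Without aged obese 10 the adjusted p was 0.0536, without aged obese 12 it was 0.0521, and without both the log2 fold change was 0.37. Hamp, the gene of hepcidin, was at 0.104 CPM or less in every library.

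**Figure D2:**
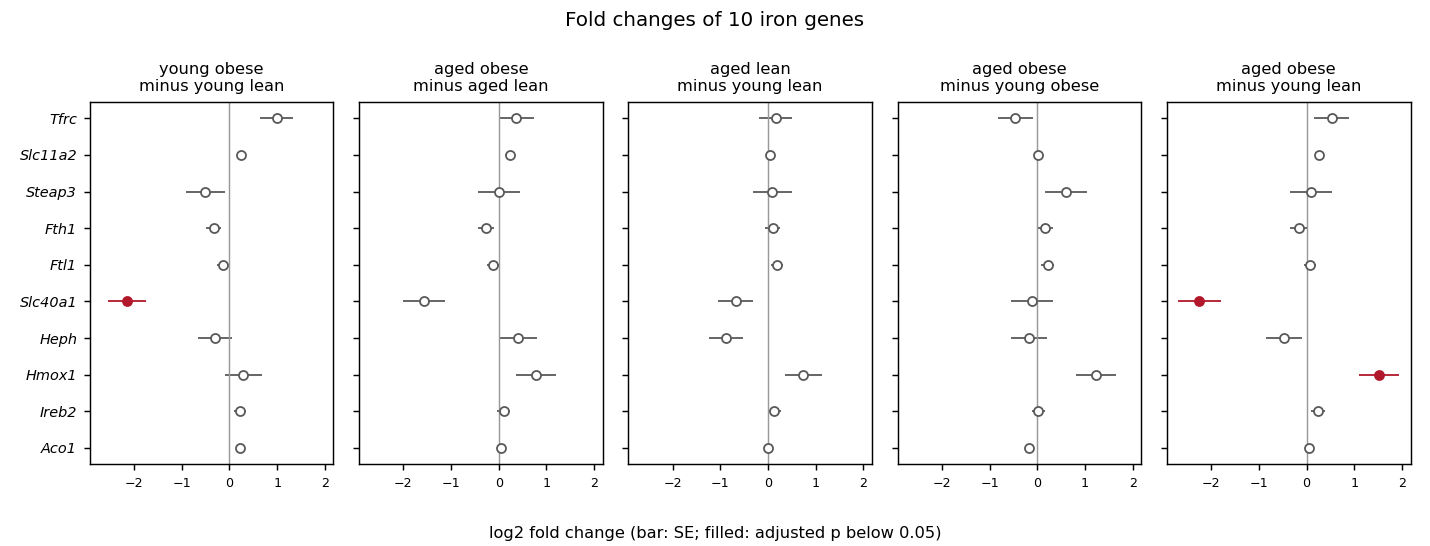
Log2 fold changes of the 10 genes in 5 comparisons, with the SE as bars, and filled red points where the adjusted p over all tested genes was below 0.05. The filled points are Slc40a1 at -2.14 (young obese minus young lean) and at -2.25, and Hmox1 at 1.53 (both aged obese minus young lean).

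The receptor by which transferrin iron enters the cell stood higher in 6 of 8 young obese libraries, without passing the threshold. Tfrc had 32.4, 85.8 and 151 CPM in its lowest, median and highest young obese library, against 27.9, 42.6 and 55.9 CPM in young lean libraries. Of the 8 young obese libraries 6 stood at 78.3 to 151 CPM, above every young lean library, and young obese 1 and 2 at 32.5 and 32.4 CPM, below the young lean median. The log2 fold change was 0.99 ± 0.34 (95% interval 0.32 to 1.66, adjusted p = 0.0641). It passed when only the young groups were fitted (adjusted p = 0.0296), with DESeq2 (0.0299) and with quality weights (0.000842). It also passed without aged obese 10 and 12 (0.0299) and without aged obese 10 alone (0.0455). It did not pass with RLE scaling (0.0618), no filter (0.0904), the GC and length offset (0.116) or the mouse numbers as a block (0.0837). Nor did it pass without young obese 1 and 2 (log2 1.26, adjusted p = 0.0545) or in 29 of 30 fits that left out 1 library.

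In aged mice the receptor split the other way. Aged obese 10 and 12 stood at 128 and 96.3 CPM of Tfrc and the other 4 aged obese libraries at 28.3 to 43.0 CPM, against 16.996, 43.4 and 92.5 CPM in the lowest, median and highest aged lean library. With obesity in aged mice the log2 fold change was 0.37 ± 0.37 (adjusted p = 0.742) and -0.39 without aged obese 10 and 12. Between aged obese and young obese libraries it was -0.46 ± 0.37 (adjusted p = 0.536), and -1.22 (adjusted p = 0.0306) without those 2 libraries. The difference of the obesity effects, aged minus young, was -0.62 ± 0.50 (95% interval -1.60 to 0.37, adjusted p = 0.744).

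The obese libraries that stood apart in the receptor also stood apart in proliferation genes and Cd34. The summed level of 8 proliferation genes (Mki67, Top2a, Cdk1, Ccnb1, Ccna2, Pcna, Mcm2 and Mcm5), a list chosen after the values of Tfrc were seen, was 816 and 1103 CPM in aged obese 12 and 10, with 143 to 344 CPM in the remaining 4 of that group. In young obese 1 and 2 it was 194 and 182 CPM, with 624 to 1054 CPM in the remaining 6. Cd34, one of the sorted markers, ran opposite, with 0.193 and 0.732 CPM in aged obese 10 and 12 but 9.67 to 37.9 CPM in the rest of that group, and with 26.1 and 27.9 CPM in young obese 1 and 2 but 0.911 to 2.79 CPM in the rest of theirs. Ly6a, which encodes the sorted marker Sca-1, was low in all 4 of these libraries. It had 176 and 362 CPM in aged obese 10 and 12 but 917 to 1018 CPM in the rest of that group, and 549 and 689 CPM in young obese 1 and 2 but 718 to 810 CPM in the rest of theirs. The part of proliferation and of the sorted markers in the level of Tfrc was not tested.

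Steap3, the reductase of the endosome, ran against the receptor in the same libraries. It had 8.43 and 11.8 CPM in aged obese 10 and 12 but 25.7 to 74.9 CPM in the remaining 4 of that group, and 46.3 and 49.8 CPM in young obese 1 and 2 but 10.6 to 21.1 CPM in the remaining 6. Young lean libraries spread from 15.8 to 77.1 CPM, with a median of 24.7. The log2 fold change with obesity in young mice was -0.50 ± 0.41 (adjusted p = 0.439), and -1.13 (adjusted p = 0.108) without young obese 1 and 2. It passed with quality weights only (log2 -0.67, adjusted p = 0.0389).

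**Figure D3:**
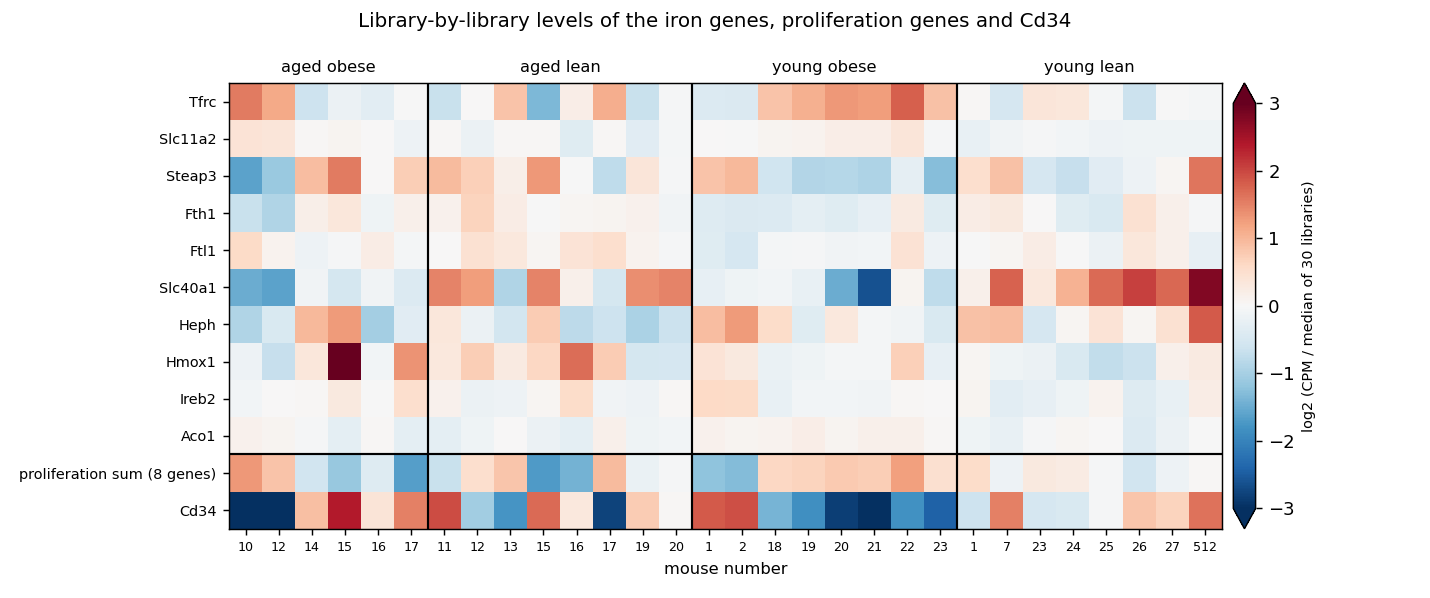
Columns are the 30 libraries by group and mouse number, rows the 10 iron genes, the summed proliferation genes and Cd34, and colours the log2 of each CPM over the median of the 30 libraries, cut at 3 either way. In aged obese 10 and 12 Tfrc and the proliferation sum are high and Steap3, Fth1, Slc40a1 and Cd34 low, and in young obese 1 and 2 Tfrc and the proliferation sum are low and Steap3, Ireb2 and Cd34 high.

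Slc11a2, which encodes the transporter DMT1, stood above the lean median of its age in most obese libraries, without passing the threshold. In young mice it had 29.4, 32.0 and 38.6 CPM in its lowest, median and highest young obese library, against 25.7, 27.6 and 29.4 CPM in young lean libraries. All 8 young obese libraries stood above the young lean median, and the groups touched only at the edge. The log2 fold change of 0.24 ± 0.08 missed the threshold (adjusted p = 0.0578). It passed in 5 of 30 fits that left out 1 library, and with RLE scaling (0.0462), DESeq2 (0.0242) and only the young groups (0.0264). It also passed with quality weights (0.00308) and without aged obese 10 and 12 (0.0248). With the GC and length offset it was 0.16 and did not pass (adjusted p = 0.292). Nor did it pass with no filter (0.0820), without young obese 1 and 2 (0.0790) or with the mouse numbers as a block (0.0703). Obesity in aged mice gave 0.23 ± 0.09 (adjusted p = 0.252), with 5 of 6 aged obese libraries above the aged lean median. Aged obese libraries had 26.9, 31.2 and 40.2 CPM as lowest, median and highest, against 23.4, 29.7 and 31.01 CPM in aged lean libraries. The 2 highest were again aged obese 10 and 12, with 40.2 and 38.8 CPM, and leaving them out gave 0.089 (adjusted p = 0.588) for obesity in aged mice. For aged obese against young lean it was 0.26 ± 0.09 (adjusted p = 0.0525), and 0.13 without those 2 libraries, and 17 of 30 fits that left out 1 library called it.

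Other routes of iron uptake, from transferrin and its second receptor to zinc and iron transporters and siderophore binding, formed a list of 12 genes with 9 tested. In each of the 6 comparisons edgeR called 0 of the 9. At an unadjusted p below 0.05 there were 2 with obesity in young mice, 1 with obesity in aged mice and 1 in aged obese against young lean cells. Over all 14438 tested genes these comparisons had 4090, 1838 and 4044. DESeq2 called 1 of the 9 in aged obese against young lean cells, against 2075 of all tested genes. Quality weights called 3 with obesity in young mice, 2 with age in obese mice and 1 in aged obese against young lean cells. Over all tested genes quality weights called 4265, 2870 and 695 in these comparisons. With obesity in young mice 8 of the 9 had positive fold changes with a median log2 of 0.19. Over all tested genes 47.56% were positive and the median was -0.02.

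The ferritin genes held their levels within a narrower range. Fth1 had 800, 837 and 1292 CPM in its lowest, median and highest young obese library, against 784, 1141 and 1469 CPM in young lean libraries. Of 8 young obese libraries 7 were below the young lean median, and young obese 22 held the high value alone. The log2 fold change was -0.32 ± 0.16 (95% interval -0.63 to -0.018, adjusted p = 0.171). It was called in none of the 39 other fits.

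Ftl1, the light chain, had a mean of 1721 ± 339 CPM in aged obese (n = 6), 1859 ± 281 in aged lean, 1481 ± 302 in young obese and 1636 ± 219 CPM in young lean libraries (n = 8 each, SD). Obesity in young mice gave -0.14 ± 0.12 (adjusted p = 0.458), which became 0.13 once GC content and length were offset. Ferritin transcripts are short, and libraries differed in how levels ran with transcript length, from a log2 slope of -0.246 to 0.116 per doubling of length in young lean libraries and 0.0152 to 0.175 in young obese libraries. Set against young lean, aged obese cells gave -0.17 ± 0.17 for Fth1 (adjusted p = 0.550) and 0.07 ± 0.13 for Ftl1 (adjusted p = 0.758). Within aged obese mice Fth1 was lowest in libraries 10 and 12, with 674 and 573 CPM, against 988 to 1359 CPM in the other 4.

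Genes around the ferritin shell, which load it, empty it or tune the iron regulatory proteins, formed a list of 7 with 6 tested. With obesity in young mice 1 rose and 1 fell, against 3.46% and 5.37% of all tested genes. Of the 6, 3 had an unadjusted p below 0.05, DESeq2 called 3 and quality weights 2. Over all 14438 tested genes these numbers were 4090, 1810 and 4265. Ncoa4, the receptor that carries ferritin to the lysosome, averaged 23.2 ± 5.45 CPM in young obese and 16.4 ± 5.12 CPM in young lean libraries (n = 8 each, log2 0.50 ± 0.16, adjusted p = 0.0482). Glrx3, a glutaredoxin of cytosolic iron traffic, averaged 154 ± 24.4 CPM in young obese and 190 ± 25.1 CPM in young lean libraries (log2 -0.30 ± 0.09, adjusted p = 0.0337). Each was near the threshold, and leaving out a single library ended the call of Ncoa4 in 16 and that of Glrx3 in 9 of 30 fits, with adjusted p of up to 0.112 and 0.0852. Without young obese 1 and 2 the log2 fold change of Ncoa4 was 0.31 (adjusted p = 0.223). In the other 5 comparisons 0 of the 6 were called by edgeR, DESeq2 or with quality weights. At an unadjusted p below 0.05 there were 2 for obesity in aged mice and 4 for aged obese against young lean. Over all tested genes 1838 and 4044 had such a p in those comparisons.

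Both iron sensors varied little over libraries, and edgeR called neither. Aco1, whose product is an aconitase when it holds an iron-sulfur cluster and an RNA binding protein when it does not, had 73.0, 78.1 and 81.8 CPM in its lowest, median and highest young obese library, against 53.7, 67.6 and 74.7 CPM in young lean libraries. All 8 young obese libraries stood above the young lean median and 1 young lean library, at 74.7 CPM, reached into the young obese range. The log2 fold change of 0.23 ± 0.07 missed the threshold narrowly (adjusted p = 0.0514). It passed with RLE scaling (0.0404), with only the young groups (0.0363), with DESeq2 (0.0185), with quality weights (0.00586) and without aged obese 10 and 12 (0.0345). With the GC and length offset (0.113) and without young obese 1 and 2 (0.102) it did not pass. Nor did it with no filter (0.0741) or with the mouse numbers as a block (0.0724). Of 30 fits that left out 1 library 15 called it, with adjusted p between 0.0278 and 0.130. In aged obese against young lean cells it was 0.05 ± 0.08 (adjusted p = 0.707).

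Ireb2, whose product is controlled by degradation when iron is plentiful, had 50.1, 56.6 and 87.4 CPM in its lowest, median and highest young obese library, against 44.0, 51.6 and 67.2 CPM in young lean libraries. The highest were young obese 1 and 2, with 87.4 and 86.7 CPM, and the other 6 lay at 50.1 to 59.1 CPM. Its log2 fold change with obesity in young mice was 0.22 ± 0.13 (adjusted p = 0.262), and 0.024 (adjusted p = 0.911) without those 2 libraries. In aged obese against young lean libraries it was 0.24 ± 0.14 (adjusted p = 0.253), with 6 of 6 aged obese libraries above the young lean median.

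Haem oxygenase 1, which opens the haem ring and frees its iron, stood high in a few aged libraries. Hmox1 had 122, 217 and 1802 CPM in its lowest, median and highest aged obese library, and 136, 274 and 628 CPM in aged lean libraries. In young mice the range was narrower, with 166, 189 and 322 CPM in young obese and 118, 178 and 238 CPM in young lean libraries. The high value of 1802 CPM belonged to aged obese 15 alone, followed by 500 CPM in aged obese 17 and 247 CPM in aged obese 14, and in aged lean mice 628 CPM belonged to library 16.

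Aged obese against young lean was the comparison in which Hmox1 was called. The mean was 506 ± 649 CPM in 6 aged obese and 175.5 ± 43.7 CPM in 8 young lean libraries, with a log2 fold change of 1.53 ± 0.42 (adjusted p = 0.0214). Of the 6 aged obese libraries 4 stood above the young lean median and the groups overlapped. Without aged obese 15 it was no longer called (log2 0.49, adjusted p = 0.324). It also ended when only those groups were fitted (0.0923), with quality weights (0.106) and with the mouse numbers as a block (0.816). In this comparison 5.62% of all tested genes were called as higher.

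The other contrasts left Hmox1 below the threshold. Age in obese mice gave 1.24 ± 0.42 (adjusted p = 0.0926) and 0.200 without aged obese 15. DESeq2 called it (0.0446), and so did edgeR without aged obese 10 and 12 (0.00938) or without aged obese 10, 12 or 16 alone (0.0402 to 0.04999). Age in lean mice gave 0.74 ± 0.39 (adjusted p = 0.850), obesity in aged mice 0.78 ± 0.42 (adjusted p = 0.448, and -0.25 without aged obese 15) and obesity in young mice 0.29 ± 0.39 (adjusted p = 0.659). The obesity effects, aged minus young, differed by 0.49 ± 0.57 (adjusted p = 0.829).

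Hmox1 is a classical target of the transcription factor Nrf2, which turns on antioxidant genes, and 11 further targets were read with it. Of these 4 rose and 0 fell in aged obese against young lean cells, against 5.62% and 4.65% of all tested genes. Fold changes were positive for 8 and negative for 3 of the 11, with a median log2 of 0.33, against -0.01 over all tested genes. The median of Nqo1, not called, was 17.5 CPM in aged obese and 20.6 CPM in young lean libraries. That of Slc7a11, also not called, was 7.47 and 13.5 CPM. DESeq2 also called 4 of the 11, and quality weights called 0. Of all 14438 tested genes DESeq2 called 2075 and quality weights 695. Srxn1, which repairs oxidised peroxiredoxins, averaged 371 ± 435 CPM in aged obese and 77.0 ± 27.4 CPM in young lean libraries (log2 2.27 ± 0.57, adjusted p = 0.0154). Gclc, the catalytic subunit of the first step of glutathione synthesis, rose by 1.303 ± 0.33 (0.0148), Txnrd1, a thioredoxin reductase, by 1.19 ± 0.35 (0.0281) and Osgin1 by 0.94 ± 0.29 (0.0345) on the log2 scale. With age in obese mice 2 of the 11 rose, Srxn1 by 2.24 ± 0.57 (adjusted p = 0.0329) and Osgin1 by 1.17 ± 0.29 (0.0273). In that comparison 1.87% of all tested genes were called as higher. In the other 4 comparisons edgeR and DESeq2 called 0 of the 11 and quality weights 1, with obesity in young mice. Age in lean mice had 4 of the 11 at an unadjusted p below 0.05, and the remaining 3 comparisons 0. Of all tested genes quality weights called 4265 with obesity in young mice. With age in lean mice 773 had an unadjusted p below 0.05.

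**Figure D4:**
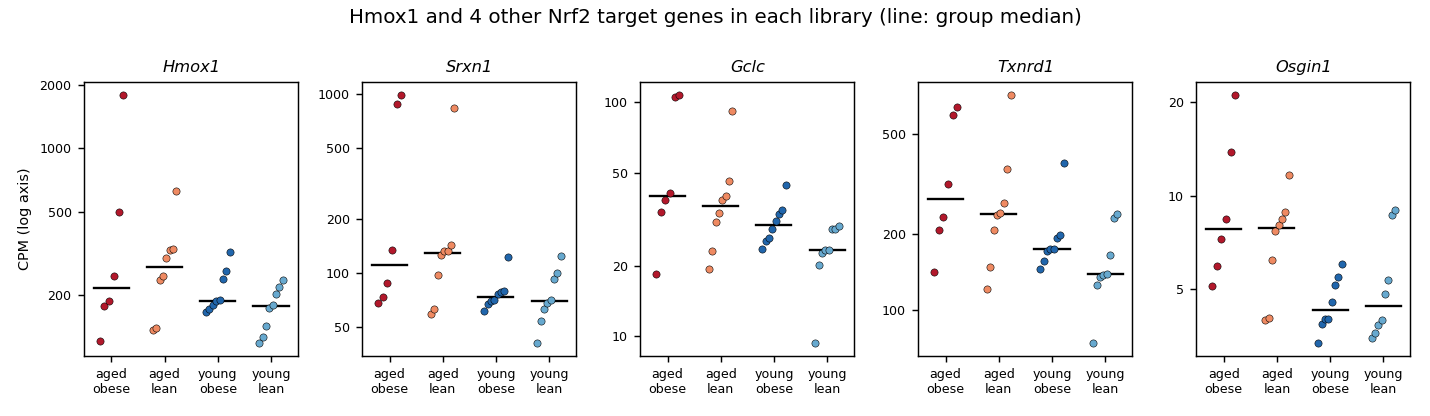
Each point is 1 library in CPM on a log axis with its own range per gene, and the line is the group median, for Hmox1 and the 4 other Nrf2 target genes called in aged obese against young lean cells. The aged obese means of Hmox1 and Srxn1, 506 and 371 CPM, stand far above their medians of 217 and 111 CPM because few libraries are high.

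The high libraries were in part the same for these genes. Aged obese 15 and 17 had 987 and 872 CPM of Srxn1, while the remaining 4 of that group had 67.8 to 134 CPM, and aged lean 16 had 829.2 CPM, against 59.2 to 144 CPM in the other aged lean libraries. Gclc stood at 107.6, 105 and 91.6 CPM in aged obese 15, aged obese 17 and aged lean 16. Nqo1 stood at 24.6, 26.5 and 34.0 CPM in the same libraries, inside the young lean range of 11.65 to 69.4 CPM. Hmox1 did not follow in proportion, with 1802, 500 and 628 CPM in these 3 libraries. Without aged obese 15 the adjusted p was 0.0736 for Srxn1, 0.0631 for Gclc, 0.109 for Txnrd1 and 0.171 for Osgin1, and without aged obese 17 it was 0.0570 for Srxn1, 0.0552 for Gclc and 0.0894 for Txnrd1. For age in obese mice, Srxn1 lost its call without aged obese 15 (adjusted p = 0.160), without aged obese 17 (0.0998), and without young obese 2, 18, 19, 20, 21 or 23 (0.0506 to 0.0605). Osgin1 lost its call there without aged obese 15 (log2 0.83, adjusted p = 0.139) and without aged obese 14 or young obese 18, 19 or 23 (0.0503 to 0.0548).

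The genes with levels most like Hmox1 over the 30 libraries were Srxn1 (Spearman rho 0.92), Maff, a small partner of Nrf2 on DNA (0.90), and Arl8b (0.87). In aged obese against young lean cells 1 of 8 stem cell markers and 2 of 5 mural markers rose and 0 fell. Over all tested genes 5.62% were called as higher and 4.65% as lower. Pdgfrb rose by 0.52 ± 0.15 (adjusted p = 0.0281), Cspg4 by 1.497 ± 0.47 (0.0378) and Myh11 by 1.197 ± 0.39 (0.0467) on the log2 scale. These calls ended in 3, 8 and 11 of 30 fits that left out 1 library, and quality weights called neither Cspg4 (adjusted p = 0.212) nor Myh11 (0.511). Pdgfrb was highest, at 1193 CPM, in aged obese 15, where Hmox1 was highest too, while Myh11 was highest, at 275 CPM, in aged obese 10, where Hmox1 stood at 177 CPM. Their part in the level of Hmox1 was not tested.

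Other genes of haem breakdown and synthesis were read beside Hmox1. With obesity in young mice 2 of 3 further haem breakdown genes had an unadjusted p below 0.05, DESeq2 called 1 and quality weights 2. Over all 14438 tested genes these numbers were 4090, 1810 and 4265. In edgeR 1 of the 3 haem breakdown genes fell, against 5.37% of all tested genes called as lower. This was Blvrb, a biliverdin reductase, with 38.4 ± 8.38 CPM in young obese and 57.1 ± 20.2 CPM in young lean libraries (n = 8 each, log2 -0.57 ± 0.16, adjusted p = 0.0323). Of 8 genes of haem synthesis 1 fell with obesity in young mice, against 5.37% of all tested genes, with 4 at an unadjusted p below 0.05, 2 called by DESeq2 and 4 with quality weights. This was Urod, a decarboxylase of the pathway, with 26.04 ± 1.10 CPM in young obese and 32.4 ± 4.32 CPM in young lean libraries (log2 -0.31 ± 0.08, adjusted p = 0.0224). Leaving out 1 library ended the call of Blvrb in 8 and that of Urod in 3 of 30 fits, with adjusted p of up to 0.0905 and 0.0637. Once GC content and length were offset, the log2 fold change was -0.37 for Blvrb (adjusted p = 0.210) and -0.11 for Urod (adjusted p = 0.341).

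With age in obese mice another gene of haem synthesis fell. Cpox, a mitochondrial oxidase late in the pathway, had 12.2, 18.9 and 21.8 CPM in its lowest, median and highest aged obese library, against 25.4, 29.6 and 30.95 CPM in young obese libraries. The groups did not overlap. Cpox fell, with a log2 fold change of -0.72 ± 0.14 (adjusted p = 0.00889), and was called in all 30 fits that left out 1 library. The call ended with the mouse numbers as a block (log2 -0.56, adjusted p = 0.170). In this comparison 3.07% of tested genes were called and 1.18% had groups that did not overlap.

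Mitochondrial iron import and the building of iron-sulfur clusters were read with 13 genes. Of these 0 were called with obesity in young mice by edgeR, against 8.83% of all tested genes. Fold changes were negative for 11 of the 13, with a median log2 of -0.24. Over all tested genes 47.56% were positive and the median was -0.02. At an unadjusted p below 0.05 there were 4 of the 13, and DESeq2 called 1 and quality weights 5. Over all 14438 tested genes these numbers were 4090, 1810 and 4265. In aged obese against young lean cells 1 of the 13 fell, against 4.65% of all tested genes. This was Lyrm4, a subunit of the cysteine desulfurase complex. It had 5.17 ± 1.35 CPM in 6 aged obese and 7.07 ± 0.852 CPM in 8 young lean libraries (log2 -0.45 ± 0.15, adjusted p = 0.0470). Its call ended in 20 of 30 fits without a library, with adjusted p of up to 0.131.

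The number of the 10 iron genes called depended on the tool. With obesity in young mice 1 fell and 0 rose in edgeR, against 8.83% of all tested genes called, 3.46% as higher. Of the 10, 5 had an unadjusted p below 0.05, DESeq2 called 4 and quality weights 5. Over all 14438 tested genes these numbers were 4090, 1810 and 4265. Obesity in aged mice gave 0 calls among the 10 by edgeR, against 0.222% of all tested genes, 0.0554% as lower. Of the 10, 2 had an unadjusted p below 0.05, DESeq2 called 1 and quality weights 0. Over all tested genes these numbers were 1838, 187 and 114. Age in lean mice gave 0 among the 10, with 1 at an unadjusted p below 0.05 (Heph) and 0 by DESeq2 or quality weights. Over all tested genes that comparison had 0 calls in edgeR, 8 by DESeq2 and 6 with quality weights, and in edgeR 773 genes had an unadjusted p below 0.05.

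Age in obese mice gave 0 calls among the 10 in edgeR, against 3.07% of all tested genes, 1.87% as higher and 1.2% as lower. Of the 10, 2 had an unadjusted p below 0.05, DESeq2 called 1 and quality weights 2. Over all 14438 tested genes these numbers were 2733, 855 and 2870. Aged obese against young lean gave 1 that rose and 1 that fell in edgeR, against 10.3% of all tested genes called. Of the 10, 3 had an unadjusted p below 0.05, DESeq2 called 3 and quality weights 0. Over all tested genes these numbers were 4044, 2075 and 695. The obesity effect differed between ages for 0 of the 10 by any of the 3 tools, with 0 at an unadjusted p below 0.05. Over all tested genes edgeR called 0.00693%, DESeq2 called 7 genes and quality weights 91, and 1155 had an unadjusted p below 0.05 in edgeR. The median log2 fold change of the 10 was 0.04 with obesity in young mice and 0.08 in aged obese against young lean cells, against -0.02 and -0.01 over all tested genes. The 27 combinations of gene and comparison not described above had log2 fold changes between -0.27 and 0.71, and 2 of them were called under any other setting.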

How the data were processed

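Reads of 30 RNA-seq libraries were counted per gene by the authors. The deposited values are raw read counts per Ensembl mouse gene. The submitters' processing notes name STAR, version 0.7.0 of HTSeq and version 1.12.4 of DESeq2, while build, annotation and strand setting are not given in the sources used here. Slc11a2 and Heph overlap genes of the opposite strand (17 and 19 counts in all), and Ftl1 shares 355 exon bases (26.5%) with Gm10252 of the opposite strand and 109 (8.13%) with Gm22133 of its own strand (0 counts). Reads of overlapping genes cannot be told apart. Left out were 5 lines that named no gene, among them those of reads outside genes (3.94% to 8.75% per library) and of ambiguous reads (2.69% to 3.41%). Groups and mouse numbers came from the sample titles, and the labels name no batch. The count column of young lean 512 has a longer header than its title, which the labels do not explain. That header leaves unclear whether the library holds cells of 1 mouse only. It was the highest young lean library for Slc40a1, Heph and Steap3. Pairs of libraries of a group differed by more than sampling noise, with a chi-square per gene of 6.34 to 476. In young obese mice it was 8.23 between libraries 1 and 2 and 6.34 between 19 and 21, but 189 between 1 and 19. Some lean pairs were close too, such as aged lean 19 and 20 (17.5). The test took the libraries of a group as independent, and the cause of the close pairs was not tested.

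The main test was edgeR's (4.0.16, in R 4.3.3) quasi-likelihood test after filterByExpr and TMM scaling, with group as the only term and all 30 libraries in the fit. P-values were adjusted by Benjamini-Hochberg over 14438 genes, and a gene was called below 0.05. The SE is the log2 fold change over the root of the F statistic, and the 95% intervals are 1.96 SE each way. CPM and TPM were computed from the counts, TPM with exon lengths of GENCODE M21. Alternatives were RLE scaling, no filter, only the groups compared, a GC and length offset, DESeq2 1.42.0, limma 3.58.1 voom with quality weights, a block for mouse numbers, young obese 1 and 2 or aged obese 10 and 12 left out, and each library left out in turn. The procedure was tested on simulated data.

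All 10 members are described. From each other list up to 4 genes with the smallest adjusted p among those called in a comparison are named, and for the called members the 3 genes with the highest Spearman rho of log2 CPM. The members and lists were chosen with earlier results of these data known, and the proliferation list after the values of Tfrc were seen.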

Additional observations from a re-analysis of the deposited data

Results flagged for a closer look

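In 7 of 40 sets of a gene and a group 1 library stood far from the others by Dixon's criterion at 95%, which chance alone exceeds in about 1 of 20 sets. Hmox1 was at 1802 CPM in aged obese 15, with the next library at 500 CPM, and at 628.3 CPM in aged lean 16, with the next at 334 CPM. Ireb2 was at 84.31 CPM in aged lean 16. Young obese 22 was high in both ferritin genes, with 1292 CPM of Fth1 and 2128 CPM of Ftl1, and was also the young obese library with the most Tfrc, 151 CPM. Fth1 was at 1697 CPM in aged lean 12. Heph was at 14.01 CPM in the young lean library that was also the highest for Slc40a1, at 3.70 CPM. The causes were not tested.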

How the results depend on the processing

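The call of Slc40a1 with obesity in young mice held in all 39 other fits, and 0 of the 10 iron genes were called with age in lean mice, or for an obesity effect that differed by age, in any of the fits run. With obesity in young mice the number of iron genes called was 1, and it was 3 with RLE scaling and 4 with only the groups compared. It was 4 with DESeq2, 5 with quality weights and 4 without aged obese 10 and 12. Over all 14438 tested genes edgeR called 1275, DESeq2 1810 and quality weights 4265 in that comparison. Obesity in aged mice gave 1 with DESeq2 instead of 0. Age in obese mice gave 1 with DESeq2, 2 with quality weights and 3 without aged obese 10 and 12 instead of 0. Aged obese against young lean gave 1 with only the groups compared, 0 with quality weights, and 3 each with RLE scaling, with DESeq2 and without young obese 1 and 2 instead of 2. With a single library left out the numbers were 1 to 4 for obesity in young mice, 0 to 1 for obesity in aged mice (1 without aged lean 16), 0 to 1 for age in obese mice (1 without aged obese 10, 12 or 16) and 1 to 3 for aged obese against young lean (1 without aged obese 15). Over all genes the single-library range was 201 to 2197 calls with obesity in young mice, 9 to 435 with obesity in aged mice and 43 to 1027 with age in obese mice.

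Mouse numbers are shared between lean and obese mice of an age, but nothing in the labels says that they pair animals, and the correlation of the deviations of same-numbered libraries ran from -0.518 to 0.390 over 6 pairs. With the numbers as a replicate block 0 iron genes were called in aged obese against young lean in place of 2. The block turned the log2 fold change of Hmox1 with age in obese mice to -0.079, its difference between ages to -0.25 and Steap3 in aged obese against young lean to -0.14.

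Other signs that turned were on log2 fold changes below the threshold. Ftl1 with obesity in young mice was 0.13 with the GC and length offset. With quality weights, Tfrc with obesity in aged mice was -0.0028 and Slc40a1 with age in obese mice 0.52. Without aged obese 10 and 12 these were -0.39 and 0.22. In aged obese against young lean, quality weights gave -0.22 for Tfrc, 0.079 for Fth1, -0.020 for Ftl1 and -0.017 for Aco1, and the fit without aged obese 10 and 12 gave -0.23 for Tfrc, 0.093 for Fth1, -0.044 for Ftl1 and -0.019 for Aco1. Single-library removals gave -0.25 to 1.04 for Hmox1 with obesity in aged mice, -0.25 to 0.029 for Slc40a1 with age in obese mice, -0.025 to 0.13 for Ftl1 and -0.27 to 0.42 for Steap3 in aged obese against young lean, and -0.54 to 0.75 for the difference of Hmox1 between ages. The causes were not tested. Counts of 3 to 144 per library limit the precision of Slc40a1.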
